A study of Mus musculus with 3 samples.

Results

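The translation initiation factors are the proteins that bring a ribosome to the start codon of an mRNA. Their genes were taken from the deposited table by name: symbols beginning with Eif and a digit from 1 to 6, without the eIF2 kinase genes (Eif2ak) and pseudogenes. Of 24067 genes in the table, 51 matched, and 50 had a mean of at least 1 FPKM over the 3 libraries. FPKM counts fragments scaled to transcript length and library depth, so it is a level per length, and genes can be set against each other within a library. The near-identical copies Eif3j1 and Eif3j2 were summed, which left 49 members among 10357 genes kept. The gene that fell below the filter was Eif4e1b, a germline relative of the cap-binding protein gene, listed at 0.0365 FPKM in the sheared Ift88 shRNA library and at 0 in both others.

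The cells were primary mouse pre-osteoclasts, the mononuclear cells that later fuse into bone-resorbing osteoclasts. The groups were sheared cells with Ift88 shRNA (labelled Ift88 knockdown), sheared cells with control shRNA (labelled WT) and static cells with control shRNA (labelled WT), with 1 library in each. All groups carried a short hairpin RNA and received MCSF and RANKL for 2 days, after which orbital shear stress, the flow made by swirling a dish, was applied to the sheared groups for 24 hours. Ift88 encodes a part of the transport machinery of the primary cilium. No static Ift88 shRNA library entered the comparisons, and a knockdown effect that needs shear cannot be told apart from one that does not. With 1 library per group no test is possible, no difference has a replicate check, and each comparison describes these libraries. Brackets after a ratio hold its 95% interval, which was computed from estimated fragments and covers counting error only.

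Ift88 (chromosome 14, 57424064 to 57517936, GRCm38) stood at 1.197 FPKM in the sheared Ift88 shRNA library, 2.71 FPKM in the sheared control library and 2.98 FPKM in the static library. Estimated depth was 34980000, 35320000 and 34750000 fragments in the same order. Of 10 osteoclast precursor markers, 8 had a mean of at least 1 FPKM, and the summed level of the 10 was 503, 391 and 482 FPKM in the sheared Ift88 shRNA, sheared control and static libraries. The summed level of 6 measured macrophage markers was 2242, 2229 and 2277 FPKM, that of 8 neutrophil markers 45.1, 43.4 and 77.6 FPKM, and that of 6 stromal markers 7.69, 5.44 and 8.02 FPKM. All 3 erythroid markers were listed at 0 in every library. Most of the macrophage sum was Cd68, at 1783, 1799 and 1787 FPKM. Lower in the sheared control than in the static library were all 8 neutrophil, 5 of 6 macrophage, 8 of 10 osteoclast and 4 of 6 stromal markers. Higher with Ift88 shRNA than with control shRNA under shear were all 10 osteoclast, all 6 stromal, 4 of 6 macrophage and 4 of 8 neutrophil markers. The part of these cell types in the ratios below was not tested, and in bulk RNA a smaller number of cells and less RNA per cell cannot be told apart.

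Initiation runs through a fixed order of complexes. eIF2 carries the initiator methionyl-tRNA to the small ribosomal subunit, and eIF3 binds that subunit. eIF4F binds the mRNA cap and unwinds the leader, while eIF1 and eIF1A guide scanning to the start codon. eIF5 then triggers hydrolysis of the GTP on eIF2, eIF5B joins the large subunit, and eIF2B reloads eIF2 with GTP. The main controls are phosphorylation of eIF2, which blocks eIF2B, and the 4E-BP proteins, which hold back the cap-binding protein eIF4E until the kinase complex mTORC1, itself activated by MCSF and RANKL in osteoclast precursors, phosphorylates them.

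The initiation factor genes were nearly level across the 3 libraries. Their summed level was 3243 FPKM in the sheared Ift88 shRNA library, 3298 FPKM in the sheared control library and 3218 FPKM in the static library, which is 0.612%, 0.609% and 0.601% of all FPKM. In sheared against static control cells no member was at least 1.2-fold higher on the log2(FPKM + 1) scale, where 1.93% of all genes were, and 1 of 49 was at least 1.2-fold lower, where 2.25% of all genes were. With Ift88 shRNA against control shRNA under shear, no member passed 1.2-fold in either direction on the same scale, where 3.24% of all genes were higher and 2.28% lower. These shares of members are close to or under the background.

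The median log2 ratio of the 49 members in the shear comparison was 0.0059, with 26 members higher, beside a median of -0.011 over all genes, of which 46.03% were higher. In the Ift88 shRNA comparison the members' median was -0.032, with 15 of 49 higher, beside 0.010 over all genes, of which 53.6% were higher. With each library scaled to the same sum of FPKM, 21 of 49 members were higher in the shear comparison and 24 of 49 in the Ift88 shRNA comparison. The median absolute log2 ratio was 0.079 for the members and 0.075 for all genes in the shear comparison, and 0.053 and 0.074 in the Ift88 shRNA comparison. The 2 comparisons share the sheared control library, so opposite ratios in them are not separate results.

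**Figure D1:**
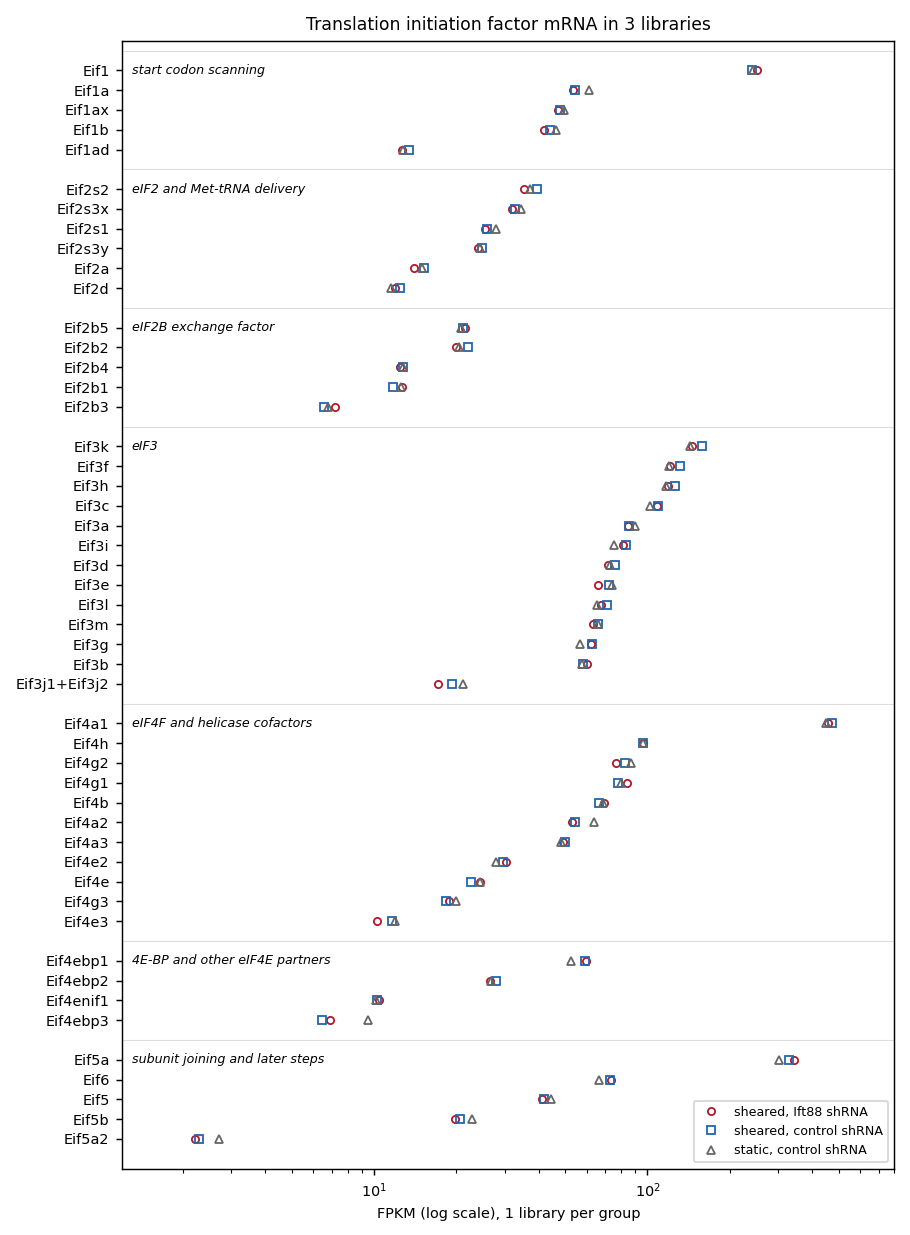
FPKM of the 49 initiation factor genes on a log scale, in rows by role and by falling mean level, with 1 symbol for each library (sheared Ift88 shRNA, sheared control, static). The 3 symbols of a gene lie close together, while genes range from Eif5a2 at 2.21 to 2.72 FPKM up to Eif4a1 at 451 to 473 FPKM.

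A threshold of 1.1-fold, chosen after the values were seen, marks the small differences. In the shear comparison 4 members were at least 1.1-fold higher (10.3% of all genes were), namely Eif3g, Eif3i, Eif3k and Eif4ebp1. In the same comparison 5 members were at least 1.1-fold lower (12.4% of all genes were), namely Eif1a, Eif4a2, Eif4ebp3, Eif5a2 and Eif5b. In the Ift88 shRNA comparison no member was at least 1.1-fold higher (13.4% of all genes were), and 4 were at least 1.1-fold lower (9.93% of all genes were), namely Eif2b2, Eif2s2, Eif4e3 and the summed Eif3j pair. Each of these shares is below the background of its comparison. The place of the Eif3j pair on the last list is uncertain. Its estimated fragments were higher with Ift88 shRNA than with control shRNA under shear, at 3092 against 2376.

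**Figure D2:**
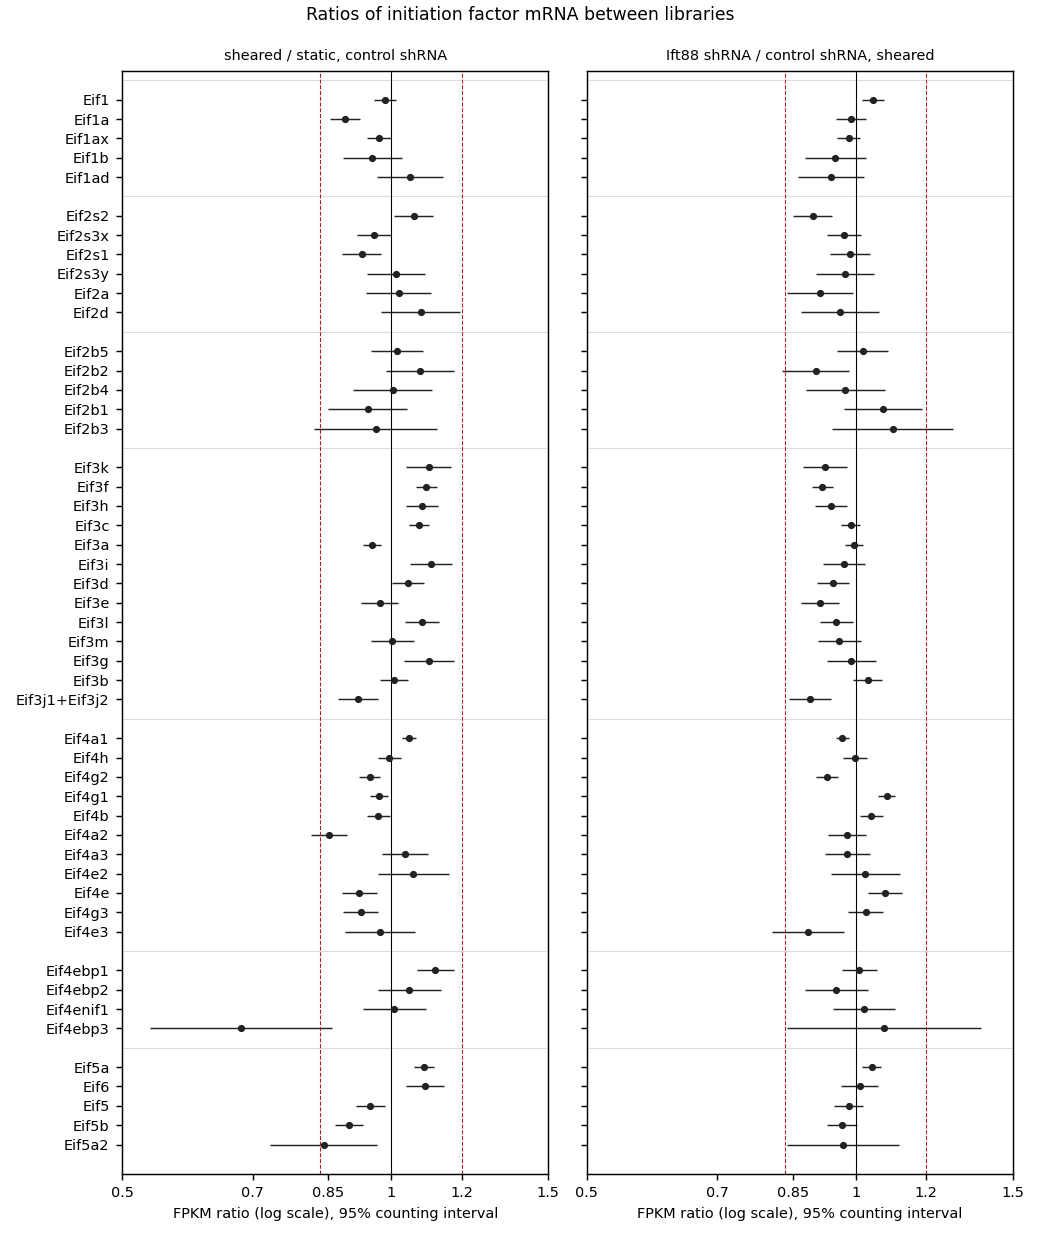
Ratio of FPKM for each member, sheared over static control cells on the left and Ift88 shRNA over control shRNA under shear on the right, on log axes, with bars for the 95% counting interval and dashed lines at 1.2-fold in each direction. Eif4ebp3, at a ratio of 0.680 in the shear comparison, is the member that lies beyond the dashed lines.

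Among the start codon scanning factors, Eif1, which keeps the scanning ribosome in an open state, was the most abundant, at 252, 240 and 244 FPKM in the sheared Ift88 shRNA, sheared control and static libraries. Of its 50-base words, 31.6% also occur in other genes. Eif1a had 53.6 FPKM with Ift88 shRNA and 54.3 FPKM in the sheared control library, both below the 61.1 FPKM of the static library. The shear ratio of Eif1a was 0.888 (0.855 to 0.923). Its X-linked counterpart Eif1ax, with nearly the same protein role, had 46.98, 47.8 and 49.4 FPKM, a shear ratio of 0.969 (0.940 to 0.999). Eif1b, a paralogue of Eif1, had 41.8, 44.07 and 46.3 FPKM. Of the 5 genes in this group, 1 was higher in the shear comparison and 1 in the Ift88 shRNA comparison, with medians of -0.045 and -0.026. With equal sums of FPKM, 3 of 5 were higher in the Ift88 shRNA comparison, and the median was 0.0062.

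The 3 subunits of eIF2 lay within a narrow band. Eif2s2, the beta subunit, had 35.3 FPKM in the sheared Ift88 shRNA library, 39.4 FPKM in the sheared control and 37.2 FPKM in the static library, a ratio of 0.896 (0.852 to 0.942) with Ift88 shRNA. Its level is uncertain, since 27.8% of its 50-base words also occur in the predicted gene Gm9892. Eif2s1, the alpha subunit that the eIF2 kinases phosphorylate, had 25.5, 25.9 and 27.9 FPKM, a shear ratio of 0.927 (0.881 to 0.975). The gamma subunit came from both sex chromosomes: Eif2s3x had 31.9, 32.9 and 34.4 FPKM and Eif2s3y 24.1, 24.8 and 24.5 FPKM. The X copy stood at 1.33, 1.33 and 1.41 times the Y copy in the sheared Ift88 shRNA, sheared control and static libraries. The ratio is uncertain, since 36.2% of the 50-base words of Eif2s3x also occur in the predicted gene Gm2223. Eif2a and Eif2d, which encode alternative carriers of initiator tRNA, lay between 11.5 and 15.3 FPKM. All 6 genes of the group were lower with Ift88 shRNA (median -0.047), by at most 0.15 on the log2 scale, and 5 of 6 were lower with equal sums of FPKM.

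The 5 subunits of eIF2B were less abundant than those of eIF2. Eif2b5, the catalytic epsilon subunit, had 21.5, 21.1 and 20.8 FPKM in the sheared Ift88 shRNA, sheared control and static libraries. Eif2b2 had 19.9 FPKM with Ift88 shRNA, 22.05 FPKM in the sheared control and 20.5 FPKM in the static library, a ratio of 0.902 (0.827 to 0.984) with Ift88 shRNA. Eif2b3 was the lowest, at 7.18, 6.53 and 6.80 FPKM, with intervals that include 1 in both comparisons. The group was split, with 3 of 5 higher in each comparison, and with 2 of 5 higher in the shear comparison with equal sums of FPKM.

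eIF3, the largest initiation complex, had 13 units here, and 10 of them were higher in sheared than in static control cells, with a median log2 ratio of 0.10. With Ift88 shRNA under shear 1 of 13 was higher, with a median of -0.072, so that the summed level of the complex was 1067 FPKM in the sheared Ift88 shRNA library, 1120 FPKM in the sheared control and 1062 FPKM in the static library. With equal sums of FPKM, 8 of 13 were higher in the shear comparison and 4 of 13 in the Ift88 shRNA comparison. By FPKM, with the Eif3j copies summed, each difference was below 1.2-fold.

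Transcripts of many ribosomal protein genes start with a run of pyrimidines, the 5′ terminal oligopyrimidine tract, through which mTORC1 controls their translation, and some initiation factor genes share it. The starts of 39 of the 50 member genes were found in the RefSeq promoter table (GRCm38.p6). A run of at least 8 C or T bases was looked for within 10 bases of an annotated start, on the strand that reads as the RNA. It was present in 9 of the 39 (23.1%), against 17.3% of all kept genes in that table and 48.3% of 60 cytosolic ribosomal protein genes. It was present in 3 of 10 eIF3 genes. The windows below show 15 bases before the start and 15 from it on, 5′ to 3′, for the 3 eIF3 genes with the run, for Eif3k without it and for both copies of the eIF2 gamma gene. Capitals mark the pyrimidine runs. The 11-base run of Eif3m begins upstream of its window and ends before the annotated start, so it lies outside the annotated transcript. They lie at chr7:108934400-108934429 (plus strand), chr15:79075208-79075237 (plus), chr2:105017013-105017042 (minus), chr7:28981874-28981903 (minus), chrX:94212637-94212666 (minus) and chrY:1010580-1010609 (plus).
Eif3f: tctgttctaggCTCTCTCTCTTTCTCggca
Eif3l: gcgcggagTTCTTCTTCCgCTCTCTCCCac
Eif3m: TTTTCCggtcggcgtgtttctggatcggag
Eif3k: aaaacaaccggcgctggtgctgaaagcgcc
Eif2s3x: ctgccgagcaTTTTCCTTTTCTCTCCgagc
Eif2s3y: gcggaggccacagccaCTTCCTTCTTTCgt

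The run is a description of the letters at annotated starts. Eif3f, Eif3l and Eif3m, which have it, had shear ratios of 1.09, 1.08 and 1.003, and Eif3k, which does not, had 1.102, while Eif2s3x and Eif2s3y, which both have it, had 0.956 and 1.01.

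Within eIF3 the core is built from 8 subunits. Eif3k, at the foot of the core, was the most abundant, at 146 FPKM in the sheared Ift88 shRNA library, 158 FPKM in the sheared control and 143 FPKM in the static library. Its ratio was 1.102 (1.04 to 1.17) with shear and 0.923 (0.873 to 0.977) with Ift88 shRNA. Eif3f had 121, 132 and 120 FPKM, with ratios of 1.09 (1.07 to 1.13) and 0.917 (0.893 to 0.943), and Eif3h had 118, 126 and 117 FPKM. Eif3f and Eif3h encode the pair of subunits with an MPN domain, and for both the sheared control library was the high one. Eif3l had 67.6, 71.1 and 65.6 FPKM and Eif3c 108, 110 and 102 FPKM.

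Core subunits did not move alike in the shear comparison. Eif3a, the scaffold, had 85.1 FPKM with Ift88 shRNA, 85.5 FPKM in the sheared control and 89.8 FPKM in the static library, a shear ratio of 0.952 (0.931 to 0.974). Eif3e, which contacts eIF4G, had 65.7, 72.03 and 74.2 FPKM, and was lowest with Ift88 shRNA (ratio 0.912, 0.868 to 0.958). Eif3m had 63.4, 66.1 and 65.9 FPKM, and its level is uncertain, since 37.3% of its 50-base words also occur in the predicted gene Gm7658. The share of 50-base words found in other genes was 26.2% for Eif3h and 22.03% for Eif3e. With Ift88 shRNA all 8 core subunits were lower, by at most 0.13 on the log2 scale, though Eif3a and Eif3c were above 0 under another scaling.

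Of the 5 peripheral units, Eif3i and Eif3g, which sit with Eif3b near the mRNA path, were higher in the sheared control than in the static library. Eif3i had 81.2, 83.7 and 75.5 FPKM (shear ratio 1.11, 1.05 to 1.17) and Eif3g 61.95, 62.6 and 56.8 FPKM (shear ratio 1.103, 1.03 to 1.18) in the sheared Ift88 shRNA, sheared control and static libraries. For these genes the sheared libraries lay together, above the static one. Eif3b was flat at 59.9, 58.1 and 57.6 FPKM, and Eif3d, which can bind the cap of some mRNAs, had 72.0, 76.4 and 73.1 FPKM.

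Eif3j encodes a loosely held subunit and was the lowest unit of the complex. Eif3j1 (chromosome 2, 122028580 to 122053632) had 16.7, 8.26 and 18.8 FPKM in the sheared Ift88 shRNA, sheared control and static libraries, while Eif3j2 (chromosome 18, 43475418 to 43477836) had 0.516, 11.1 and 2.28 FPKM. The copies went opposite ways, and 90.8% of the 50-base words of Eif3j2 also occur in Eif3j1 transcripts, so the level of each copy is uncertain. Their sum was 17.2 FPKM with Ift88 shRNA, 19.3 FPKM in the sheared control and 21.1 FPKM in the static library. The ratio of the sum was 0.918 (0.871 to 0.967) with shear and 0.889 (0.843 to 0.938) with Ift88 shRNA. The sum is uncertain as well. The estimated fragments of the pair were 3092, 2376 and 3585 in the same order, so by fragments the pair was higher with Ift88 shRNA, not lower. By fragments the pair also passed 1.2-fold in both comparisons, lower with shear and higher with Ift88 shRNA, which the summed FPKM did not. These estimates used transcripts of 5413 bases for Eif3j1 and 2379 bases for Eif3j2. The intervals are centred on the FPKM ratios and do not cover this. Eif3k stood at 8.47, 8.16 and 6.80 times the summed Eif3j level in the 3 libraries.

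The eIF4F genes and their helicase cofactors were lower in the shear comparison in 8 of 11 cases, with a median log2 ratio of -0.044. After centring on genes of like transcript length, 4 of 11 were higher in that comparison, and the median was -0.022. Eif4a1, the main helicase of the complex, was the most abundant member of all, at 457 FPKM in the sheared Ift88 shRNA library, 473 FPKM in the sheared control and 451 FPKM in the static library. Its level is uncertain, since 64.9% of its 50-base words also occur in the pseudogene Eif4a-ps4. Eif4a2 (chromosome 16, 23107468 to 23114132), the second helicase gene, had 52.9 and 54.1 FPKM in the sheared Ift88 shRNA and sheared control libraries, both below the 63.5 FPKM of the static library. Its shear ratio was 0.852 (0.814 to 0.893), and its ratio with Ift88 shRNA was 0.978 (0.932 to 1.03). Eif4a1 stood at 8.63, 8.73 and 7.10 times Eif4a2 in the 3 libraries. Eif4a2 hosts small nucleolar RNA genes in its introns and overlaps 185 bases of Rfc4, which had 4.67, 4.36 and 4.07 FPKM. Eif4a3, a helicase of the exon junction complex, had 49.01, 50.1 and 48.3 FPKM, and 24.4% of its 50-base words also occur in other genes.

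Eif4e, the cap-binding subunit, had 24.3 FPKM with Ift88 shRNA, 22.5 FPKM in the sheared control and 24.4 FPKM in the static library. Its ratio was 0.922 (0.882 to 0.964) with shear and 1.08 (1.03 to 1.13) with Ift88 shRNA, and the sheared control library was the low one. Eif4g1, the main scaffold that joins cap, helicase and eIF3, had 84.4, 77.9 and 80.3 FPKM, a ratio of 1.08 (1.06 to 1.11) with Ift88 shRNA. Eif4g2, a related scaffold without the eIF4E site, went the other way with Ift88 shRNA, at 76.8, 82.6 and 87.2 FPKM (ratio 0.9296, 0.903 to 0.957). Eif4g3 had 18.8, 18.4 and 19.9 FPKM.

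The helicase cofactor gene Eif4h was at 96.1, 96.3 and 96.7 FPKM in the sheared Ift88 shRNA, sheared control and static libraries, and Eif4b at 69.1, 66.3 and 68.6 FPKM. Of the other cap-binding relatives, Eif4e2, which encodes a repressive cap binder, had 30.4, 29.7 and 28.02 FPKM. Eif4e3 had 10.3 FPKM with Ift88 shRNA against 11.6 FPKM in the sheared control, with 11.9 FPKM in the static library (ratio 0.884, 0.805 to 0.971).

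The E-box CACGTG, a palindrome that reads the same on both strands and is bound by MYC among other factors, was looked for because genes of eIF4F are known MYC targets. It was present in the 300 bases around an annotated start, 250 before and 50 after, in 10 of 39 member genes (25.6%), against 12.5% of all kept genes in the table. Genes with several annotated starts, such as Eif5a and Eif4e, have more chances to hold it. The Eif4e sites shown belong to its downstream annotated start (window chr3:138527018-138527317). The window of its upstream start (chr3:138525941-138526240) holds no E-box. The sites of the cap-binding and scaffold genes are shown with 12 bases on each side, the motif in capitals, at chr3:138527028-138527057 (plus strand), chr3:138527192-138527221 (plus), chr16:20672661-20672690 (plus) and chr16:20672730-20672759 (plus).
Eif4e, first site: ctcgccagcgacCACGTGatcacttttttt
Eif4e, second site: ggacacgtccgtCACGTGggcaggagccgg
Eif4g1, first site: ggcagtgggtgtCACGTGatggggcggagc
Eif4g1, second site: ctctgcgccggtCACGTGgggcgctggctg

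The 4E-BP genes held the 1 member past 1.2-fold by FPKM in the shear and Ift88 shRNA comparisons. Eif4ebp3 (chromosome 18, 36664060 to 36666324), the least abundant of the translational repressors, had 6.91 FPKM in the sheared Ift88 shRNA library, 6.43 FPKM in the sheared control and 9.46 FPKM in the static library. The sheared libraries lay together below the static one. The shear ratio was 0.680 (0.537 to 0.858), and the ratio with Ift88 shRNA was 1.07 (0.837 to 1.38), an interval that includes 1. The transcript is short, at 744 bases, and the static value rests on an estimated 183 fragments. In addition, 65.5% of its 50-base words occur in the annotated gene AC115631.1, whose span also reaches into the neighbouring Ankhd1, so its level is uncertain. Ankhd1 itself had 11.98, 11.6 and 12.05 FPKM.

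Eif4ebp1, the best known mTORC1 substrate of the family, was the member with the highest shear ratio. It had 59.5 FPKM with Ift88 shRNA, 58.9 FPKM in the sheared control and 52.6 FPKM in the static library, a shear ratio of 1.12 (1.07 to 1.18). Its level relative to Eif4e was 2.45, 2.62 and 2.15 in the 3 libraries. Eif4ebp2 had 26.6, 27.99 and 26.7 FPKM, and Eif4enif1, whose protein shuttles eIF4E into the nucleus, 10.5, 10.2 and 10.2 FPKM.

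Among the factors of later steps, Eif5a, whose protein acts mainly in elongation despite its name, had 344 FPKM in the sheared Ift88 shRNA library, 330 FPKM in the sheared control and 303 FPKM in the static library. Its shear ratio was 1.09 (1.06 to 1.12), and its ratio with Ift88 shRNA was 1.04 (1.02 to 1.07). Its paralogue Eif5a2 was the least abundant member, at 2.21, 2.28 and 2.72 FPKM, with a shear ratio of 0.840 (0.732 to 0.964). Eif6, which keeps the ribosomal subunits apart, had 73.6, 72.8 and 66.7 FPKM, a shear ratio of 1.09 (1.04 to 1.15). Eif5 had 41.2, 41.98 and 44.3 FPKM. Eif5b, the GTPase of subunit joining, had 19.8 and 20.5 FPKM in the sheared Ift88 shRNA and sheared control libraries and 22.9 FPKM in the static library, a shear ratio of 0.898 (0.865 to 0.931).

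Set directly against static control cells, sheared cells with Ift88 shRNA had no member at least 1.2-fold higher (4.79% of all genes were) and 2 members at least 1.2-fold lower (4.48% of all genes were). These were Eif4ebp3, at a ratio of 0.730 (0.581 to 0.917), and the summed Eif3j pair, at 0.816 (0.778 to 0.857). The place of the pair is uncertain, since by estimated fragments, at 3092 against 3585, it was inside the threshold. Eif4a2 lay just inside the threshold, at 0.833 (0.795 to 0.873), a log2(FPKM + 1) ratio of -0.26. Eif5a2 had a lower plain FPKM ratio, at 0.813 (0.707 to 0.934). It was not counted, since its log2(FPKM + 1) ratio was -0.21, and adding 1 FPKM understates changes of low genes. With 0.1 FPKM added instead, 3 members were at least 1.2-fold lower. The median of the members was -0.0087.

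**Figure D3:**
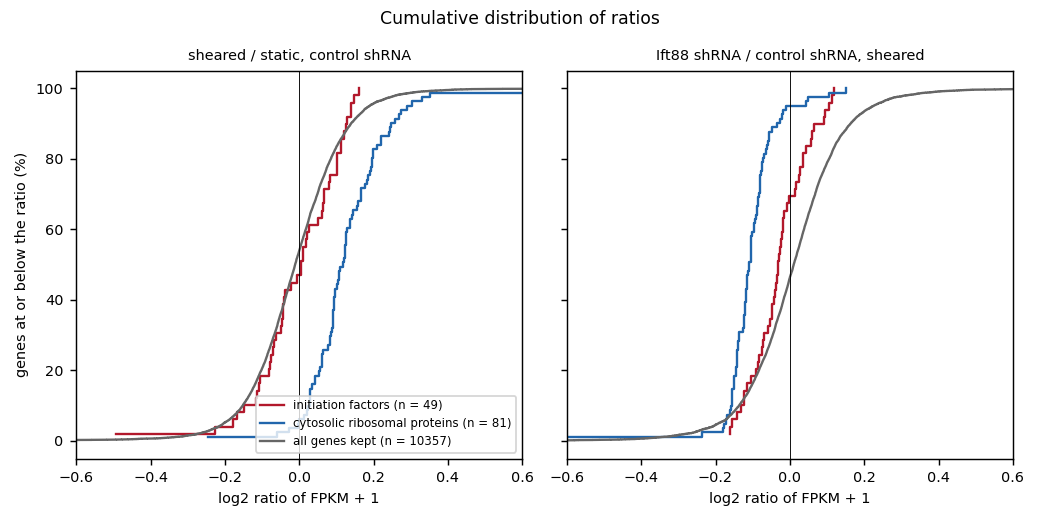
Cumulative share of genes at or below each log2 ratio of FPKM + 1, sheared over static control cells on the left and Ift88 shRNA over control shRNA under shear on the right, for the 49 initiation factor genes, 81 cytosolic ribosomal protein genes and all 10357 genes kept. The initiation factors run close to all genes on the left and slightly to the left of them on the right, while the ribosomal protein genes are displaced to higher ratios on the left and to lower ratios on the right; ratios beyond 0.6 in size are not drawn.

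The ribosomal protein genes give a scale for these differences. Of 81 cytosolic ribosomal protein genes, 77 were higher in the shear comparison (median 0.12) and 4 in the Ift88 shRNA comparison (median -0.11). The eIF3 medians of 0.10 and -0.072 have the same signs, whereas the eIF4F group stood at -0.044 and -0.0025. With equal sums of FPKM the eIF4F median in the Ift88 shRNA comparison was 0.030, with 7 of 11 genes higher against 5 of 11 as deposited. Of 20 cytosolic tRNA synthetase genes, 17 were higher in the shear comparison (median 0.081) and 15 in the Ift88 shRNA comparison (median 0.046). Differences between these groups could not be tested with 1 library each.

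Transcript length differs between the members and moved with the shear ratio. Across the 49 members the Spearman correlation of length with the shear log2 ratio was -0.515, and across 10267 genes with a known length it was -0.28; the points share both libraries. Of the 25 shorter members, up to 2299 bases, 19 were higher in the shear comparison (median 0.065), and of the 24 longer ones 7 were (median -0.049). After centring on genes of like length, 9 of 13 eIF3 units were higher in the shear comparison, with a median of 0.079, and 25 of 49 members were higher, with a median of 0.00035. The same centring left 66 of 81 ribosomal protein genes higher, with a median of 0.063.

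**Figure D4:**
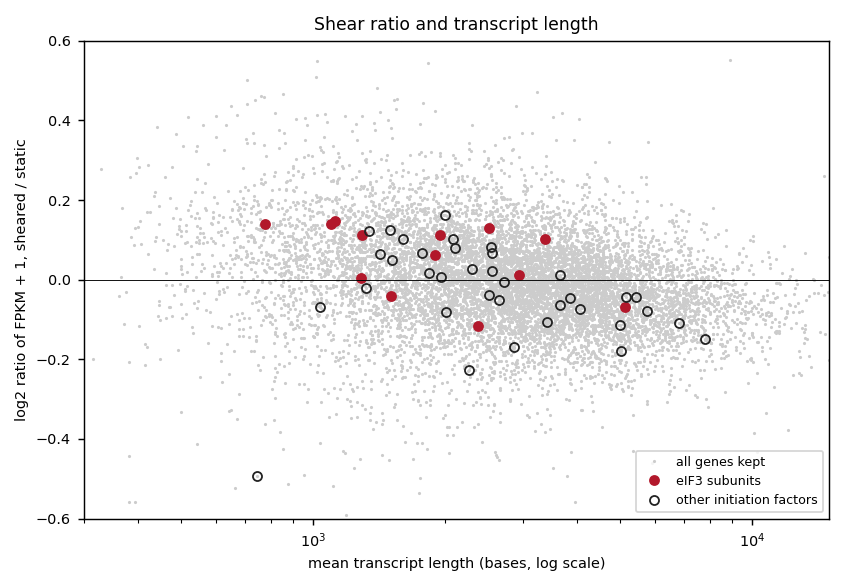
Log2 ratio of FPKM + 1 in sheared over static control cells against mean transcript length in bases on a log scale, for eIF3 units (filled), other initiation factor genes (open) and all genes kept (grey points); genes outside the axes are not drawn. Short members lie mostly above 0 and long members mostly below, as the grey points also do.

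Among the genes that act on the initiation factors, none of 9 genes for eIF2 kinases and phosphatase subunits passed 1.2-fold in either comparison. Eif2ak2, which encodes the double-stranded RNA sensor PKR, had 12.8, 12.3 and 14.04 FPKM in the sheared Ift88 shRNA, sheared control and static libraries. Eif2ak3, which encodes the endoplasmic reticulum kinase PERK, had 12.1, 11.3 and 10.4 FPKM. Of 18 genes of mTORC1 and eIF4E signalling, none passed 1.2-fold in the shear comparison and 2 were at least 1.2-fold lower with Ift88 shRNA, beside 2.28% of all genes. Mknk2, a kinase that phosphorylates eIF4E, had 57.5 FPKM with Ift88 shRNA against 74.9 FPKM in the sheared control, with 74.5 FPKM in the static library (ratio 0.767, 0.743 to 0.793). Akt1s1, which encodes the mTORC1 component PRAS40, had 25.2, 33.4 and 29.4 FPKM in the same order, with no counting interval, since its shortest annotated transcript has 333 bases.

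For Mknk2 the sheared Ift88 shRNA library was the low one and the control libraries were level. None of 5 poly(A) binding, 8 elongation or 8 termination and recycling genes passed 1.2-fold in either comparison. Eef1a1, the elongation factor that delivers tRNA, had 2941, 3146 and 2958 FPKM, and Eef2, the translocase, 631, 628 and 568 FPKM. Of the termination and recycling genes 1 of 8 was higher in the shear comparison, with a median of -0.065.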

How the data were processed

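RNA was measured in 3 mRNA libraries (TruSeq mRNA kit, per the labels' protocols), 1 per group. The FPKM values are the authors' own, deposited as 1 table. Build mm10 and the tools Cufflinks 2.2.1, TopHat2 2.0.13, Trimmomatic 0.32 and bcl2fastq 1.8.4 are listed, without roles, in the submitters' processing notes. The sources used here state no settings or strand, and overlapping genes may share fragments.

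Ratios were computed here as log2(FPKM + 1), which understates changes of low genes; folds beside genes are plain FPKM ratios. Genes with a mean of at least 1 FPKM were kept. The steps between low FPKM values of single-transcript genes of at least 1000 bases gave an estimate of depth. Between 63.9% and 65.2% of low values were whole within 0.1, so no count model was used. Fragments came from the shortest transcript and give 95% Clopper-Pearson intervals. Transcript lengths and 50-base words came from GENCODE, gene positions and start sequences from RefSeq (GRCm38), matched for 23987 gene IDs. The ratio code was tested on simulated data (Python 3.11.15, SciPy 1.17.1).

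The members and lists were chosen with earlier results of these data known. Named by rule were the leading members of each role, those past 1.2-fold and the Eif3j pair; others were named after their values were seen. No group has replicates, so no p-value is given. One list of cell type markers is not reported here.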

Additional observations from a re-analysis of the deposited data

How the results depend on the processing

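Counts and medians were recomputed under 9 other settings, and 102 of 117 values stayed within 1.5 times (counts) or within the median counting error of a member with an unchanged sign (medians). That counting error was 0.071 on the log2 scale, larger than each main median, so the rule says little about how stable the medians are. The Ift88 shRNA median was -0.032 in the main setting and -0.00013 with equal sums of FPKM, and was counted as unchanged. With equal sums of FPKM the shear median was -0.011, the median of sheared Ift88 shRNA over static was 0.0055, the 1.1-fold higher count was 1 for shear and 2 for Ift88 shRNA, and the 1.1-fold lower count for Ift88 shRNA was 0. Scaled to the upper quartile, the median of sheared Ift88 shRNA over static was 0.0030. Centred in 10 bins of transcript length, the 1.1-fold shear counts were 1 higher and 3 lower. With Eif3j1 and Eif3j2 separate, the 1.2-fold counts were 1 higher and 2 lower for shear and 1 higher and 1 lower for Ift88 shRNA, and the 1.1-fold higher count for Ift88 shRNA was 1. Without Eif4ebp3 the 1.2-fold lower counts were 0 for shear and 1 for sheared Ift88 shRNA over static. The smaller number of members or the copies' split sets the last 2 of these settings; for the others the cause was not tested. Leaving out Eif4ebp3, the 1.1-fold threshold and the third ratio were chosen after seeing the data. No paired analysis was possible because each group has 1 library. Depth limits the low members: Eif4ebp3, Eif5a2 and Eif2b3 have the widest intervals.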
